A study of Homo sapiens with 4 samples.

Results

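RPLP0, RPLP1 and RPLP2 are the genes of the ribosomal stalk, 3 members chosen by gene name from a table of 19948 protein-coding genes. The table holds read counts for 4 pools of a polysome gradient made from HEK293T cells, a human embryonic kidney line. All pools came from cells that received cycloheximide at 100 ug/mL for 10 min, which holds elongating ribosomes on their mRNAs. The lysate was spun through sucrose from 10% to 50% and divided into free, monosome, light polysome and heavy polysome pools. No mTOR inhibitor and no LARP1 mutant is named for these libraries, and there was 1 library per pool. Capped, polyadenylated RNA was read directly on nanopores, so a read stands for an RNA molecule and counts were not divided by length.

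The stalk is the flexible arm of the large ribosomal subunit. RPLP0 codes for the protein that anchors the arm on the ribosome, next to RPL12, and RPLP1 and RPLP2 code for the small acidic proteins that bind it as pairs. The tail shared by all of them contacts the translation GTPases, such as the elongation factors EEF1A1 and EEF2. Their mRNAs are TOP mRNAs, a class whose first bases after the cap are pyrimidines and which is controlled by mTOR and LARP1. The gradient shows where these mRNAs lie in growing cells, which is the question the pools address.

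The RNA starts are shown because the pyrimidine run defines the class. RefSeq promoter sequences (GRCh38.p14) cover the 15 bases before and the 15 bases from the first base of the RNA. Capitals mark the longest run of C and T that reaches within 5 bases of that first base.
RPLP0: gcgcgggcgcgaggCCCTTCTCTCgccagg
RPLP1: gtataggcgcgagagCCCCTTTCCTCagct
RPLP2: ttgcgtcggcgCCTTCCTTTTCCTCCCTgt
RPL12: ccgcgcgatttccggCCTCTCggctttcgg
These windows lie at chr12:120201097-120201126 on the minus strand, chr15:69452803-69452832 on the plus strand, chr11:809952-809981 on the plus strand and chr9:127451392-127451421 on the minus strand. The run has 10 bases in RPLP0, 11 in RPLP1 and 17 in RPLP2, against 6 in RPL12. With the annotated first base as 0, it starts at 0 in RPLP1 and RPL12, -1 in RPLP0 and -4 in RPLP2. Part of the run in RPLP0 and RPLP2 thus lies before the RefSeq first base. The GENCODE gene bounds, given below, reach further, so the windows of all 3 stalk genes lie inside them. Runs of at least 8 were counted if they reached within 5 bases of the first base, whether or not they began the RNA. Such a run was present in 3 of 3 stalk genes, in 45 of 60 other ribosomal protein genes with a sequence (75%) and in 11.3% of all 27305 promoters. The annotated first base may not be the one used in these cells, and the match is a description of the sequence.

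The coding ends are shown because they carry the tail that the stalk proteins have in common. These are the last 45 bases before the stop codon in GENCODE release 29, with capitals where all 3 genes have the same base.
RPLP0: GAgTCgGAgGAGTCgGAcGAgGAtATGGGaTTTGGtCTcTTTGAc
RPLP1: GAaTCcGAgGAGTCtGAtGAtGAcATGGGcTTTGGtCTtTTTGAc
RPLP2: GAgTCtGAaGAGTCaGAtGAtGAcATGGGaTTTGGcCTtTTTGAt
Of these bases, 34 were identical in all 3. When the whole coding sequences of RPLP1 and RPLP2 were aligned, 233 of 292 paired bases were identical (79.8%). Bases opposite gaps were left out of this share. RPLP1 has a coding length of 342 nucleotides and RPLP2 one of 345, while RPLP0 has 951. On hg38, RPLP0 lies on chromosome 12 (120196686 to 120201235, minus strand), RPLP1 on chromosome 15 (69452784 to 69456194, plus strand) and RPLP2 on chromosome 11 (809647 to 812880, plus strand).

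Processed pseudogenes can take reads from the parent genes. Of 5 pseudogenes named after RPLP0, 1 (RPLP0P6) matched the parent over at least 90% of the coding sequence with at least 95% identity, at 98.8%. RPLP0P2, annotated as transcribed, covered 100% of it at 94.3% identity, just short of this limit. None of the 4 named after RPLP1 reached this, the closest being RPLP1P6 at 93.5%, nor did RPLP2P1 at 85.7%. RPLP2 overlaps PIDD1 on the other strand, but PIDD1 had only 3, 7, 11 and 22 counts from free to heavy polysome. The handling of reads with several alignments was not given in the sources used here, and its part in the counts was not tested.

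The libraries held 355509 counts in the free pool, 1329334 in the monosome pool, 1499401 in the light polysome pool and 1564531 in the heavy polysome pool. There were no replicates, so no value has a replicate error and no p-value was computed. All intervals cover 95% counting error only. Of 8 markers of HEK293T cells, 6 had at least 30 counts over the 4 libraries and none was without a count (INA and PAX2 had 6 counts each), while 8 of 9 markers of other lines had no count and MITF had 7.

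The stalk mRNAs together took a smaller share of reads in heavy polysomes than in free RNA, with most of the difference in RPLP1, and all 3 were still among the 84 most counted genes of the heavy polysome pool. The 3 genes took 10.9% of free reads (Clopper-Pearson interval 10.8 to 11.0), 3.45% of monosome reads (3.42 to 3.48), 1.77% of light polysome reads (1.74 to 1.79) and 0.855% of heavy polysome reads (0.841 to 0.870). RPLP1 was the least counted of the 3 in the heavy polysome pool and the most counted in the free pool, so the members did not share 1 pattern.

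RPLP1 gave 31331 reads in the free pool, 22540 in the monosome pool, 8067 in the light polysome pool and 2982 in the heavy polysome pool. Scaled by library total (CPM) these were 88130 (exact Poisson interval 87157 to 89111), 16956 (16735 to 17179), 5380 (5263 to 5499) and 1906 (1838 to 1976). Each pool was below the one before it, and no interval overlapped its neighbour's. By read count RPLP1 was 2nd of all genes in the free pool, 3rd in the monosome pool, 27th in the light polysome pool and 84th in the heavy polysome pool.

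RPLP0 gave 5008 reads in the free pool, 18504 in the monosome pool, 13033 in the light polysome pool and 5232 in the heavy polysome pool. In CPM these were 14087 (13699 to 14482), 13920 (13720 to 14122), 8692 (8544 to 8843) and 3344 (3254 to 3436). The free and monosome intervals overlapped, and both polysome pools were below them and apart from each other. By read count it was 12th in the free pool, 7th in the monosome pool, 4th in the light polysome pool and 38th in the heavy polysome pool.

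RPLP2 gave 2533 reads in the free pool, 4775 in the monosome pool, 5368 in the light polysome pool and 5163 in the heavy polysome pool. In CPM these were 7125 (6850 to 7408), 3592 (3491 to 3695), 3580 (3485 to 3677) and 3300 (3211 to 3391). The free pool was the highest, the monosome and light polysome intervals overlapped almost wholly, and the heavy polysome pool was slightly below both. In CPM RPLP2 was therefore nearly level over the 3 pools that carry ribosomes, which holds for scaling by library total. The median gene with at least 30 counts was 3.34-fold higher in share in heavy polysomes than in monosomes. Relative to that gene, RPLP2 lay at -1.86 on the log2 scale.

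**Figure D1:**
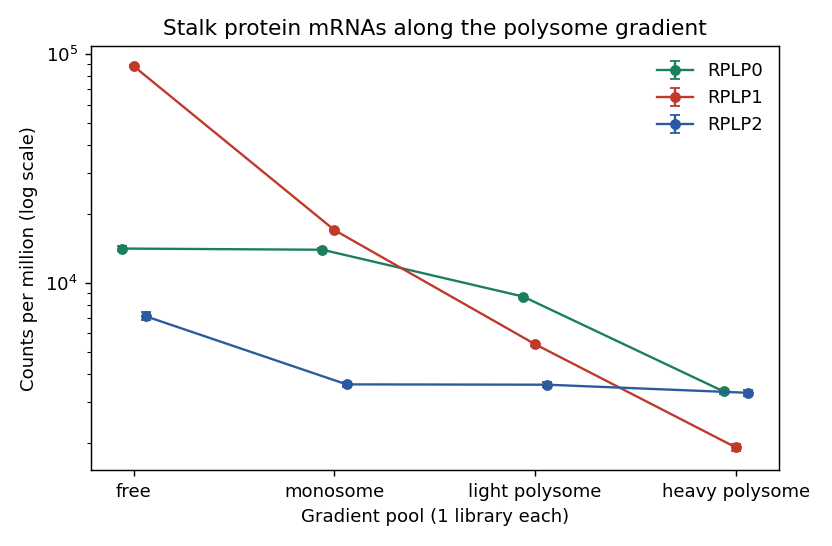
CPM (log scale) of the 3 stalk genes in the 4 gradient pools, from free to heavy polysome, with 1 library per pool and exact Poisson 95% intervals as bars, mostly smaller than the points. RPLP1 has 1906 CPM in the heavy polysome pool, against 88130 in the free pool, while RPLP2 stays between 3300 and 3592 CPM over the monosome and polysome pools.

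The differences between the members can be read from the pools in which each gene's share lay, after each gene's 4 CPM values were scaled to sum to 100%. This gives every pool equal weight, because the RNA mass of a pool was not given in the sources used here. RPLP1 lay at 78.4% in the free pool, 15.1% in the monosome pool, 4.79% in the light polysome pool and 1.70% in the heavy polysome pool. RPLP0 lay at 35.2%, 34.8%, 21.7% and 8.35%, and RPLP2 at 40.5%, 20.4%, 20.3% and 18.8%. The share in the heavy polysome pool was thus smallest for RPLP1 and largest for RPLP2. RPL12, the neighbour of RPLP0 at the base of the stalk, lay at 50.1%, 20.3%, 21.8% and 7.79%.

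**Figure D2:**
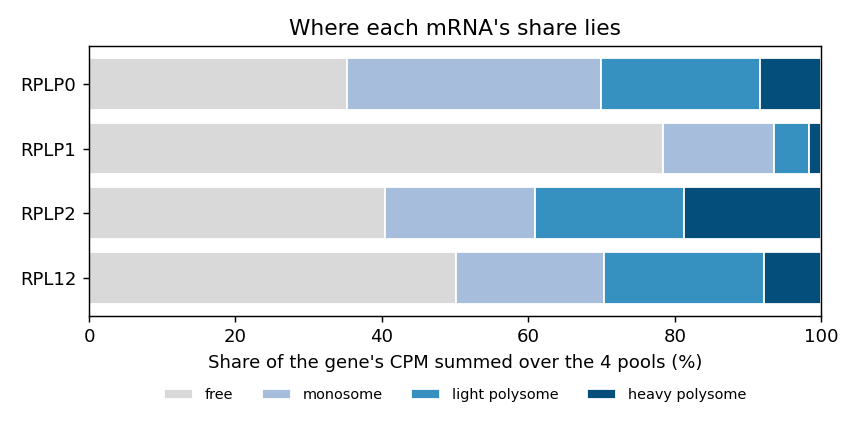
Share of each gene's CPM, summed over the 4 pools, that lay in each pool (horizontal axis, %), for the 3 stalk genes and RPL12, with 1 library per pool and no error bars. The free segment is 78.4% for RPLP1, against 35.2% for RPLP0 and 40.5% for RPLP2.

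A gradient position was computed as the mean of 0, 1, 2 and 3 for free to heavy polysome, weighted by CPM. It was 0.298 for RPLP1, 1.03 for RPLP0 and 1.17 for RPLP2, against 1.18 for the median of 75 tested ribosomal protein genes and 2.25 for the median of all 7527 tested genes. From the free end, RPLP1 was 1st, RPLP0 18th and RPLP2 34th of the 75 ribosomal protein genes. The place of RPLP2 depended on the setting, at 66th without the free pool, 44th with weights of 0, 1, 3 and 8 and 17th after TMM scaling. RPLP1 was 5th without the free pool and 1st with these weights and after TMM scaling. RPL12 was 5th at 0.873. With CPM after TMM scaling RPLP2 (0.503) lay nearer the free end than RPLP0 (0.541), so the order of this pair depends on the scaling, while RPLP1 was nearest the free end under each of the 4 position settings tried among the 3 members.

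Reads of the members were also set against each other, where scaling cancels. The ratio of RPLP1 to RPLP2 reads was 12.4 in the free pool (11.9 to 12.9), 4.72 in the monosome pool (4.58 to 4.87), 1.5 in the light polysome pool (1.45 to 1.56) and 0.578 in the heavy polysome pool (0.552 to 0.604). The ratio in the heavy polysome pool was 21.4-fold smaller than in the free pool, a log2 change of -4.42 (-4.51 to -4.33). RPLP2, the scarcer of the 2 in free RNA, was thus the more counted in heavy polysomes, although the coding lengths differ by 3 nucleotides.

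The ratio of RPLP1 to RPLP0 reads was 6.26 in the free pool (6.07 to 6.45), 1.22 in the monosome pool (1.19 to 1.24), 0.619 in the light polysome pool (0.602 to 0.636) and 0.570 in the heavy polysome pool (0.545 to 0.596). Most of the change lay between the free and monosome pools, at -2.36 on the log2 scale (-2.41 to -2.31). Between heavy and light polysomes the change was only -0.12 (-0.20 to -0.04), so RPLP1 and RPLP0 ran almost in parallel there.

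The ratio of RPLP0 to RPLP2 reads was 1.98 in the free pool (1.88 to 2.07), 3.88 in the monosome pool (3.75 to 4.00), 2.43 in the light polysome pool (2.35 to 2.51) and 1.01 in the heavy polysome pool (0.975 to 1.05). It was highest in the monosome pool and had an interval that included 1 in the heavy polysome pool. The log2 change was 0.97 (0.89 to 1.05) for monosome against free and -1.26 (-1.33 to -1.19) for heavy against light polysome.

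**Figure D3:**
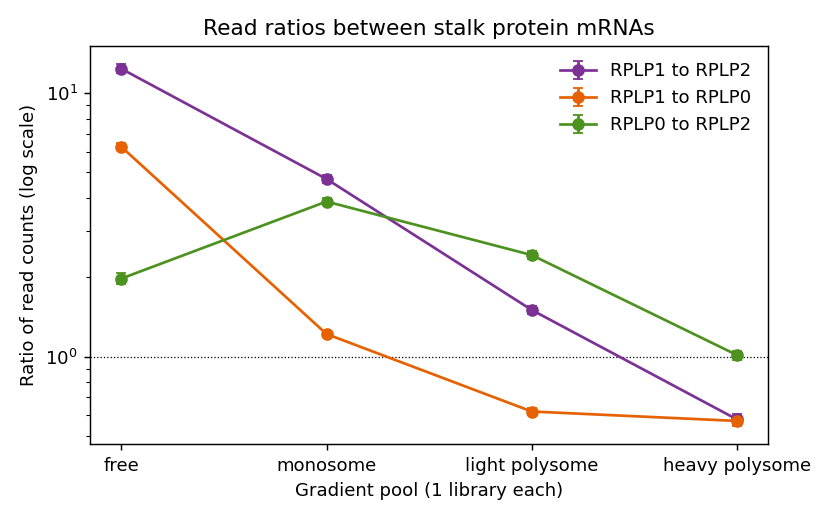
Ratio of read counts (log scale) between pairs of stalk genes in each of the 4 pools, with 1 library per pool and Clopper-Pearson 95% intervals as bars. The ratio of RPLP1 to RPLP2 is 0.578 in the heavy polysome pool, against 12.4 in the free pool, and that of RPLP0 to RPLP2 peaks at 3.88 in the monosome pool.

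Against the other ribosomal protein mRNAs the members also parted. RPLP1 took 13.5% of all ribosomal protein reads in the free pool, 3.08% in the monosome pool, 1.70% in the light polysome pool and 0.992% in the heavy polysome pool. RPLP0 took 2.154%, 2.53%, 2.74% and 1.74%. RPLP2 took 1.09%, 0.654%, 1.13% and 1.72%, with its largest share in the heavy polysome pool. The share of RPLP1 within the family thus differed more between the pools at the ends of the gradient than that of RPLP0 or RPLP2, and all ribosomal protein genes together took 19.2% of heavy polysome reads against 65.4% of free reads.

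For each pair of pools, the log2 ratio of shares was taken for all 7527 genes with at least 30 counts. Values below are relative to the median of these genes. Their intervals treat that median as fixed, so they do not cover the choice of scaling. The median gene was 8.26-fold higher in share in the heavy polysome pool than in the free pool, so a gene with equal shares lies well below 0 on this scale. Only 6075 genes had a count in the free library, so some of the 7527 tested genes had none there. The median gene against free thus rests partly on few free reads and on the pseudocount of 0.5. With a pseudocount of 1, values in heavy polysome against free rose by 0.54. A gene was counted as lower when it lay at least 2-fold below the median gene.

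Heavy polysome against free asks which mRNAs carry many ribosomes. RPLP1 lay at -8.58 (-8.63 to -8.52), lowest of the 75 ribosomal protein genes and 12th lowest of all tested genes. RPLP0 lay at -5.12 (-5.18 to -5.06), the 20th lowest of the family, between RPS18 at -5.17 and RPL30 at -5.09. RPLP2 lay at -4.16 (-4.22 to -4.09), the 41st lowest, between RPS4X at -4.19 and RPS26 at -4.00. All 3 were counted as lower, against 30.0% of all tested genes, 29 of 30 small-subunit genes and 41 of 42 other large-subunit genes. Without centring the log2 ratios of shares were -5.53 for RPLP1, -2.07 for RPLP0 and -1.11 for RPLP2, and all 3 still lay at least 2-fold lower, against 3.93% of tested genes.

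Light polysome against free compares mRNAs with a few ribosomes and with none. RPLP1 lay at -6.30 (-6.34 to -6.27) and was again the lowest ribosomal protein gene. RPLP2 lay at -3.26 (-3.33 to -3.19), the 18th lowest, and RPLP0 at -2.97 (-3.01 to -2.92), the 29th lowest. All 3 were counted as lower, against 25.0% of tested genes, 27 of 30 small-subunit and 36 of 42 other large-subunit genes. Here RPLP2 lay below RPLP0, the opposite of their order in heavy polysome against free. Without centring, RPLP1 alone passed 2-fold at -4.03, while RPLP2 lay at -0.99 and RPLP0 at -0.70, against 1.89% of tested genes.

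Monosome against free compares mRNAs under a single ribosome and under none. RPLP1 lay at -3.65 (-3.67 to -3.62), the lowest of the family, next to RPL12 at -2.57. RPLP2 lay at -2.26 (-2.33 to -2.19), the 6th lowest, and RPLP0 at -1.28 (-1.33 to -1.24), the 27th lowest. All 3 were counted as lower, against 20.0% of tested genes, 18 of 30 small-subunit and 21 of 42 other large-subunit genes. Without centring RPLP0 had nearly equal shares, at -0.02 (-0.06 to 0.03), RPLP2 lay at -0.99 and RPLP1 at -2.38. RPLP1 was then the only member past 2-fold, against 3.89% of tested genes.

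Heavy polysome against monosome put RPLP1 and RPLP2 far apart in rank. RPLP1 lay at -4.89 (-4.95 to -4.84), the 6th lowest of the 75. RPLP0 lay at -3.80 (-3.84 to -3.75), the 25th lowest. RPLP2 lay at -1.86 (-1.92 to -1.81), the 66th lowest, and its uncentred ratio was -0.12 (-0.18 to -0.07). All 3 were counted as lower, against 29.1% of tested genes, 30 of 30 small-subunit and 41 of 42 other large-subunit genes. RPLP2 was not past 2-fold without centring.

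Light polysome against monosome gave -2.64 (-2.68 to -2.60) for RPLP1, the 4th lowest of the family, and -1.66 (-1.70 to -1.63) for RPLP0, the 34th lowest. RPLP2 lay at -0.99 (-1.05 to -0.93), the 65th lowest, just short of the 2-fold limit and with equal shares when not centred (0.00, -0.06 to 0.05). Thus 2 of 3 were counted as lower, against 20.0% of tested genes, 26 of 30 small-subunit and 36 of 42 other large-subunit genes. In this comparison the highest small-subunit gene was FAU at -0.25 and the highest other large-subunit gene was RPL3 at -0.71.

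Heavy against light polysome compares many with few ribosomes. RPLP1 lay at -2.09 (-2.15 to -2.03) and RPLP0 at -1.97 (-2.02 to -1.92), the 23rd and 26th lowest of the 75. RPLP2 lay at -0.71 (-0.76 to -0.65), the 54th lowest. Thus 2 of 3 were counted as lower, against 29.0% of tested genes, 22 of 30 small-subunit and 25 of 42 other large-subunit genes. The range of the family ran from RPL41 at -4.28 to RPL5 at 1.00, with all 3 members between these ends.

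**Figure D4:**
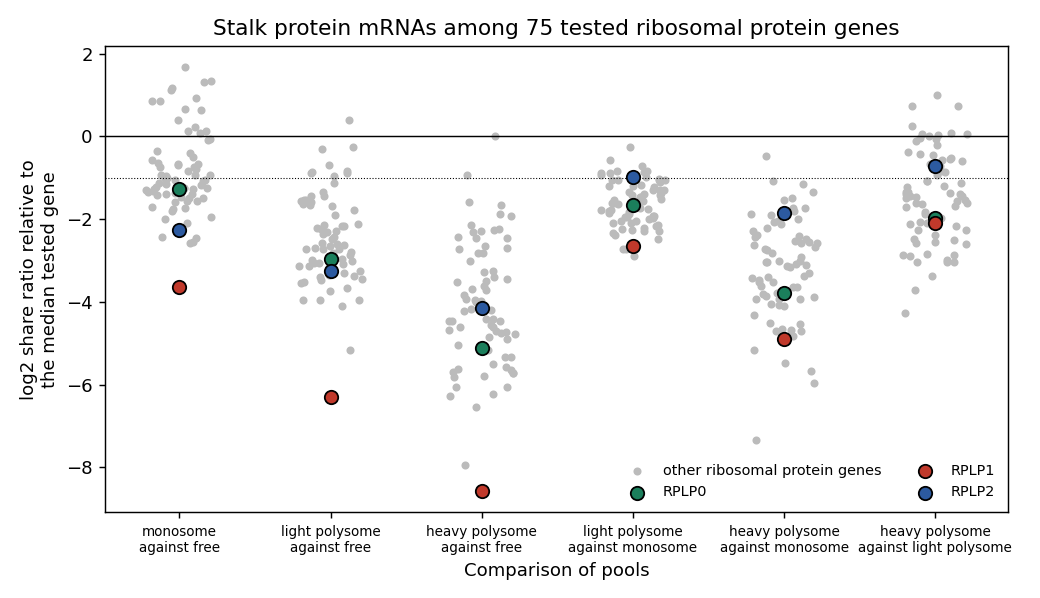
Log2 share ratio relative to the median tested gene (vertical axis) for 75 ribosomal protein genes in each of the 6 comparisons of pools, with grey points for the other genes and coloured points for the stalk genes. The solid line is the median gene and the dotted line lies 2-fold below it. RPLP1 is the lowest point in the 3 comparisons with the free pool, at -3.65, -6.30 and -8.58, and RPLP2 is near the upper end of the family in heavy polysome against monosome at -1.86.

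Short coding sequences hold fewer ribosomes, so the members were set beside ribosomal protein genes with a coding length within 10% of their own. For RPLP1 there were 9 such genes besides RPLP2, and their gradient positions ran from 1.06 (RPS25) to 1.38 (RPS26) with a median of 1.22. RPLP1 at 0.298 lay outside this range and RPLP2 at 1.17 inside it. In heavy polysome against free the same genes ran from -5.70 (RPS25) to -3.69 (RPL35A), a range that held RPLP2 at -4.16 but not RPLP1 at -8.58. In heavy against light polysome they ran from -3.04 (RPS25) to -1.34 (RPL35A), a range that held RPLP1 at -2.09, while RPLP2 at -0.71 lay above all 9. RPLP1 lay below all 9 in the other comparisons too. RPLP2 lay below all 9 in light polysome against free, where their lowest was RPL30 at -2.73, and in monosome against free, where it was RPS20 at -1.39. In heavy polysome against monosome RPLP2 lay above all 9, the highest being RPL35A at -2.40. RPLP0 had 5 genes of like length, from RPS2 at 0.506 to RPL6 at 1.61 in position, and at 1.03 lay between them.

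**Figure D5:**
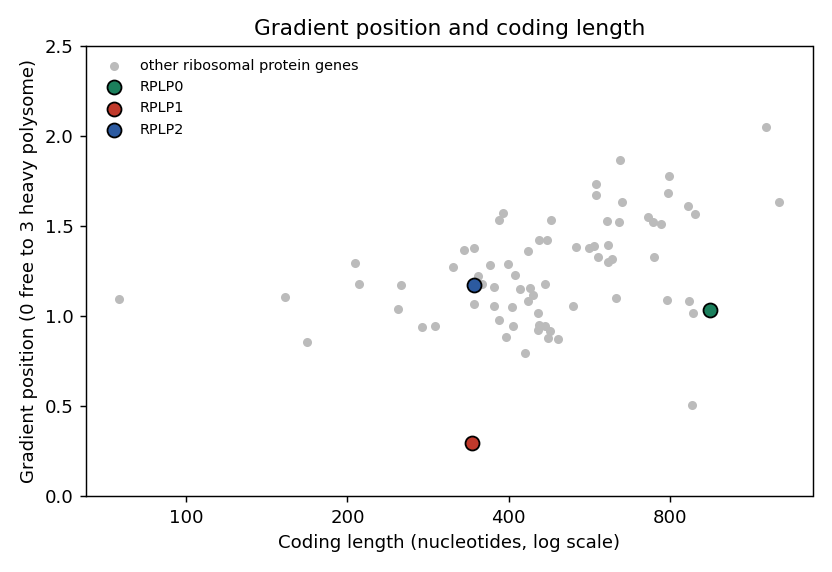
Gradient position (0 for free to 3 for heavy polysome) against coding length in nucleotides (log scale) for 75 tested ribosomal protein genes, from 1 library per pool, with the stalk genes in colour. RPLP1 at 342 nucleotides has the lowest position, 0.298, and RPLP2 at 345 nucleotides lies among the other genes at 1.17.

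The genes most like each member were taken as those with the smallest distance between profiles over the 4 pools, among 642 genes with at least 1000 counts. The distance is the part of the profile, in percent, that would have to move to another pool. The nearest to RPLP1 were not mostly ribosomal proteins: the ferritin heavy chain FTH1 at 4.95%, the mRNA-binding protein YBX1 at 6.91%, NBEAL1 at 10.5%, the ferritin light chain FTL at 13.5% and RPS2 at 16.6%. FTH1 gave 1240 reads in the heavy polysome pool, against 12416 in the free pool. All 5 nearest genes of RPLP0 were ribosomal protein genes, RPL30 at 3.18%, RPS19 at 3.33%, RPS24 at 3.43%, RPL37A at 4.06% and RPL27A at 4.22%. Those near RPLP2 included RPL32 at 4.91%, RPL28 at 5.98%, RPS4X at 8.92% and RPS13 at 10.9%, and RPL12 lay at 11.1%.

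The members themselves were further apart than each was from the genes named as near it. RPLP0 and RPLP2 were 15.7% apart, RPLP1 and RPLP2 37.9%, and RPLP1 and RPLP0 43.2%. RPLP2 stood 19th and RPLP0 32nd in order of nearness to RPLP1, and RPLP1 stood 362nd from RPLP0.

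Most tested genes lay further down the gradient than the stalk mRNAs, since only 2.09% lay nearer the free end than RPLP2. The tested mRNAs of a list of GTPase translation factors also lay further down. Of 12 GTPase translation factors, 9 were tested, and in heavy polysome against free 0 lay at least 2-fold below the median gene and 5 at least 2-fold above it, against 30.0% of tested genes below and 23.5% above it, with a median of 1.12. The 5 above it rest on few free reads: 0 for GSPT1 and GTPBP2, 1 for EEF1A2 and GTPBP1 and 5 for EIF2S3. None of their intervals lay wholly above the 2-fold limit, with lower ends from -1.85 (GTPBP2) to 0.77 (GSPT1). The median of 1.12 is the value of GTPBP2, which had 39 counts in the heavy polysome library. EEF1A1, which delivers aminoacyl-tRNA, had 676, 18499, 9575 and 12347 counts from free to heavy polysome and a gradient position of 1.67. It lay at -0.99 (-1.10 to -0.88) in heavy polysome against free, just short of the limit, and with a minimum count of 100 the number of factors counted as lower was 1. EEF2, the translocation factor, had 42, 1293, 2208 and 1806 counts and a position of 1.99. Both lay further from the free end than any stalk mRNA, but nearer to it than the median tested gene at 2.25.

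In the exchange complex that recharges EEF1A1, EEF1B2 had 535, 3099, 1359 and 1710 counts. It lay at -3.51 (-3.65 to -3.36) in heavy polysome against free, above all 3 stalk genes. Only 3.55% of tested genes lay below RPLP2 in this comparison. EEF1D, with 64, 276, 330 and 1008 counts, lay at -1.22 (-1.57 to -0.82), and VARS, the valyl-tRNA synthetase of the complex, at -0.11 with 1 count in the free library. EEF1G had 0 counts in every library, so no ratio was taken, and the cause of the missing counts was not tested. Of the 3 tested, 2 lay at least 2-fold lower and 0 higher, against 30.0% and 23.5% of tested genes.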

How the data were processed

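Direct RNA sequencing of HEK293T cells gave 4 libraries, 1 for each gradient pool. The authors deposited raw read counts, whole numbers per gene without normalization. The submitters' processing notes name minimap2 2.15, featureCounts, Subread 1.6.2 and the hg38 build. Annotation release, strand use and the handling of reads with several alignments were not given in the sources used here.

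The counts were divided by library totals. Genes with at least 30 counts over the 4 libraries were tested (7527, all 3 stalk genes among them). Log2 ratios of shares used a pseudocount of 0.5 and were centred on the median tested gene. Intervals are exact: Poisson for levels, Clopper-Pearson for shares and, conditional on the sum, for ratios; changes of a ratio between libraries use a normal approximation. With 1 library per pool edgeR's quasi-likelihood test could not be fitted, and precision is that of the counts alone. Calculations were tested on simulated data. The members and gene lists were chosen with earlier results of these data known, and the comparison with genes of like coding length was added after the counts were seen. Named genes are the members, RPL12, the 5 nearest profiles (1 of which is not reported here), list members, and ribosomal protein genes at the ends of, or next to the members in, each order. RPLP0P6, RPLP0P2, RPLP1P6, RPLP2P1 and PIDD1 were named after their values were seen. Python 3.11.15, scipy 1.17.1, pandas 2.3.3, numpy 2.4.6, Biopython 1.88, matplotlib 3.10.9, R 4.3.3, edgeR 4.0.16 and DESeq2 1.42.0 were used. Alternatives were edgeR TMM and DESeq2 scaling, totals without ribosomal protein genes or without centring, other minimum counts and pseudocounts, other position weights and a 1.5-fold limit.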

Additional observations from a re-analysis of the deposited data

How the results depend on the processing

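All 162 values of a member in a comparison under an alternative setting were below 0, as were the 18 values reported. Of the 162, 128 lay outside the interval of the value reported, which covers counting error only. Scaling moved all genes of a comparison alike: in heavy polysome against free, TMM raised values by 0.48, DESeq2 size factors by 0.35 and totals without ribosomal protein genes by 1.82, and leaving out the minimum count raised them by 1.13. With library totals and no centring, the members at least 2-fold lower numbered 1 in light polysome against free, 1 in monosome against free and 1 in light polysome against monosome, against 3, 3 and 2 when centred; the member left was RPLP1 each time. RPLP0 was also not past 2-fold in monosome against free with totals without ribosomal protein genes (-0.40), with no minimum count (-0.59) or with a pseudocount of 1 (-0.92), nor RPLP2 in heavy polysome against monosome without ribosomal protein genes (-0.97) or centring (-0.12). RPLP2 passed 2-fold in light polysome against monosome with a minimum count of 100 (-1.06) or a pseudocount of 0 (-1.01). Apart from these 3, the counts of members were within 1.5 times of those reported. Among the other lists, a minimum count of 100 gave 1 GTPase factor lower in heavy polysome against free in place of 0. It gave 0 kinases in place of 1. In heavy against light polysome it gave 1 mitochondrial stalk gene and 0 genes of late large-subunit maturation, each in place of 3. A 1.5-fold limit gave 1 GTPase factor in place of 0 in both of these comparisons. The order of RPLP0 and RPLP2 in gradient position turned with TMM scaling. No paired analysis was possible because there is 1 library per pool, and no replicate could be left out.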

Other observations

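The mitochondrial ribosome has a stalk of its own, and its mRNAs were counted far less. MRPL12, its stalk protein, had 0, 22, 57 and 39 counts from free to heavy polysome and a gradient position of 2.11. MRPL10, which anchors it, had 1, 28, 68 and 187 counts and a position of 2.49. MRPL11, at the base, had 78, 912, 930 and 298 counts and the position nearest the free end of these genes at 1.46. MRPL54, a further large-subunit protein, had 18, 143, 343 and 252 counts and a position of 1.91. In heavy against light polysome 3 of 4 lay at least 2-fold below the median gene, MRPL11 at -2.29, MRPL12 at -1.19 and MRPL54 at -1.10, while MRPL10 lay at 0.80. Over all tested genes 29.0% were lower, and with a minimum count of 100 the number of these genes counted as lower was 1.

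MRTO4, the nucleolar relative of RPLP0 that holds its place during subunit assembly, had 4, 37, 187 and 433 counts and a position of 2.51. RPLP0 lay at 1.03 and the median tested gene at 2.25. DUSP12, whose yeast counterpart releases that protein, had 2, 45, 47 and 33 counts and a position of 1.74. In heavy polysome against free, 2 of 7 tested genes of late large-subunit maturation lay at least 2-fold below and 1 above the median gene. Over all tested genes these were 30.0% and 23.5%. The 2 lower were DUSP12 at -1.44 (-3.11 to 1.97) and NOP53 at -1.26 (-1.84 to -0.55). MRTO4 was the higher at 1.41 (0.21 to 3.46), so each interval crossed the 2-fold limit. Their list median of 0.22 is the value of LSG1, with 1 count in the free library. Among kinases linked to the stalk, CSNK2A1, a catalytic subunit of a kinase that phosphorylates stalk proteins, had 6, 77, 82 and 318 counts. Its position was 2.34. Of 5 tested kinase genes, 1 lay at least 2-fold below the median gene in heavy polysome against free and 1 above it. The shares over all tested genes were 30.0% and 23.5%. The lower was EEF2K at -1.28 (-3.35 to 4.64) and the higher CSNK2A2 at 1.53 (-0.39 to 7.42), each with 1 count in the free library. With a minimum count of 100, 0 kinase genes were lower.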
